A study of Macaca mulatta with 43 samples.

Results

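Proteins marked for destruction are tagged with ubiquitin and broken down by the proteasome, and the genes of these 2 systems were followed in medial prefrontal cortex of rhesus macaques that drank ethanol for 1 year. The set holds every gene of the array whose symbol begins with PSMA to PSMG and a digit (proteasome subunits, activators and assembly factors), with UBE2 (E2 conjugating enzymes) or with SUMO and a digit, or is UBA1 to UBA7 or SAE1 (E1 activating enzymes). There were 63 such genes among the 14132 genes with a probeset of their own on the array, and 62 passed the filter on low values, the exception being UBE2U. By role they were 4 alpha and 5 constitutive beta subunits of the 20S core and 3 immunoproteasome beta subunits. The 19S cap had 5 ATPases and 8 other genes counted with it by symbol, among them the assembly chaperone PSMD9. The rest were 7 activators, inhibitors and chaperones, 6 E1 enzymes and SUMO genes, 24 E2 enzymes, and PSMC3IP. The symbol rule takes in PSMC3IP, but it is a meiotic recombination factor and no subunit. PSMD14, PSMB9 and SUMO3 had no probeset with 1 gene symbol and were not analysed here.

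In this pathway an E1 enzyme activates ubiquitin, an E2 enzyme accepts it, and the E2 enzyme, mostly with an E3 ligase, places it on a substrate. Chains of ubiquitin are read by the 19S cap, whose ring of ATPases unfolds the substrate and feeds it into the 20S core, a stack of alpha and beta rings in which some of the beta subunits cut peptides. SUMO, NEDD8 and ISG15 are ubiquitin-like proteins with E1 and E2 enzymes of their own. In neurons the system turns over synaptic proteins, and interferon replaces the cutting subunits by immunoproteasome forms.

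RNA from Brodmann areas 24, 25 and 32 was pooled for each of 43 male macaques aged 5 to 11 years, and each animal gave 1 array. The 32 drinkers had 22 h of access per day to 4% (w/v) ethanol beside water, and the 11 controls received a maltose dextran solution matched in calories to a drinker. Cohort 4 held 11 drinkers and no control, cohort 5 held 8 drinkers and 5 controls, cohort 7a held 8 and 4, and cohort 7b held 5 and 2. RNA of cohorts 4 and 5 was extracted with another kit than that of cohorts 7a and 7b, and the arrays of the first pair were processed before those of the second. All animals, controls included, had been housed singly and drinkers had first been induced to drink by schedule-induced polydipsia. All values are deposited RMA values on the log2 scale, and a difference of 1 is a doubling. In bulk tissue, fewer cells of a type and less RNA per cell cannot be told apart.

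Arrays were set apart by RNA processing as well as by treatment. The 3′ minus 5′ value of beta-actin, which rises where transcripts are truncated among arrays made alike, lay between 4.24 and 4.95 in cohorts 4 and 5 and between 0.75 and 1.71 in cohorts 7a and 7b. In cohort 5 it was 4.24 to 4.74 in controls and 4.36 to 4.95 in drinkers. In cohort 7a the 4 controls, at 0.76 to 0.87, all lay under the 8 drinkers, at 0.93 to 1.60. In cohort 7b the controls had 0.75 and 0.81 and the drinkers 0.76 to 1.71, with 1 drinker, 41, inside the control range. By the processing batches recovered, drinkers 41, 42 and 43 of cohort 7b and drinker 36 of cohort 7a shared a batch with no control. The main fits therefore compare levels between treatments within cohorts only. Levels of different cohorts are set against each other only for drinkers of cohorts 4 and 5, and in an alternative fit with no cohort term.

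Within cohorts, drinkers had lower transcript levels of most core proteasome subunits and most E2 enzymes than controls, while UBA1, the main E1 enzyme of ubiquitin, was higher. Of the 62 members tested, 33 fell and 7 rose at an adjusted p under 0.05 (limma with cohort as a term, Benjamini-Hochberg over 24151 probesets), and 22 did not pass. On the whole array 21.5% of probesets fell and 11.8% rose. The share of members that rose (11.3%) was near that of the array, and the share that fell (53.2%) was above it. Here and below, members count only the brightest probeset of each gene, while array shares count every tested probeset, so the units differ. Over all 137 tested probesets of the members, 56 fell and 12 rose. The median difference was -0.13 over the members and -0.04 over all probesets tested. With each array centred on its median the split was 11 higher and 22 lower. For this and the other alternative fits no share of all probesets is given. Those member counts therefore cannot be set against the array. In cohorts 4 and 5 alone, with array processing batch as a term, no member was called (5 controls against 19 drinkers).

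**Figure D1:**
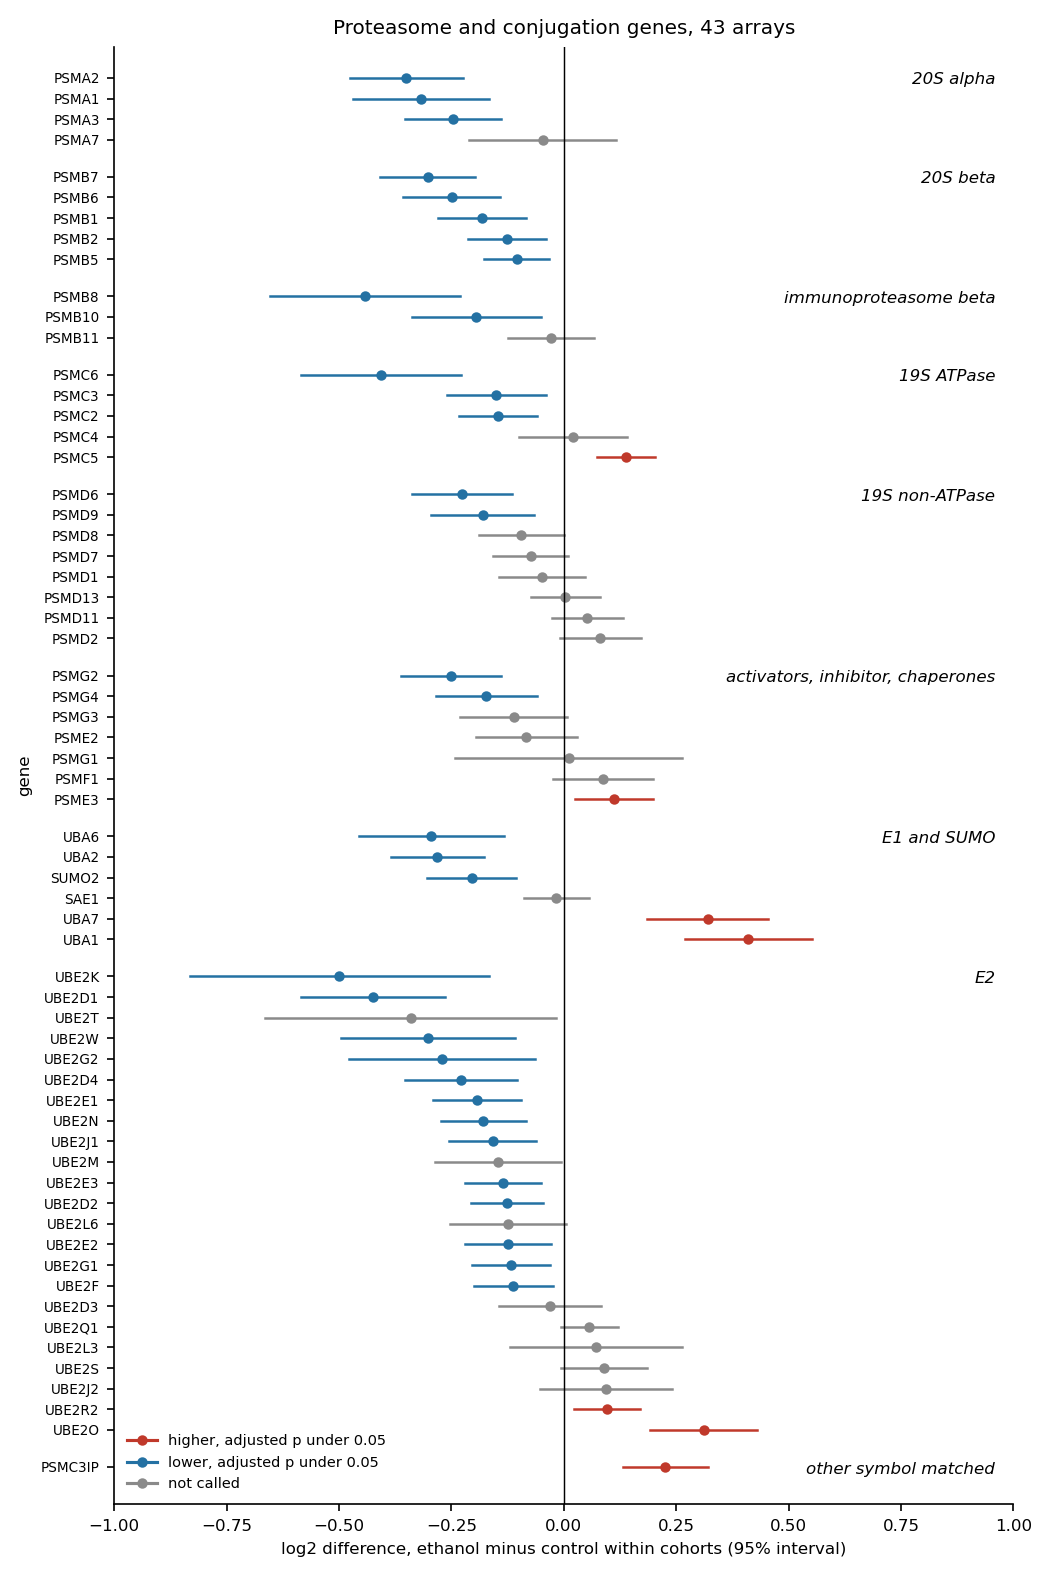
Log2 difference between drinkers and controls within cohorts (x axis) for each of the 62 members tested (y axis, by role), with 95% intervals; blue genes fell, red genes rose and grey genes did not pass. The 9 subunits of the 20S core that were measured all lie left of 0, and the 7 genes that rose are spread over 5 role groups.

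In the 20S core, all 9 alpha and constitutive beta subunits measured had a negative difference and 8 of them fell, by between 0.10 and 0.35 on the log2 scale, with PSMB1 counted on the brighter of its 2 probesets, which disagreed. Among the alpha subunits, which form the outer rings and gate the entry, PSMA2 fell by 21.5%, with a log2 difference of -0.35 (SE 0.0622, adjusted p = 8.01e-05). PSMA1 stood at -0.32 (SE 0.0746, adjusted p = 0.00118) and PSMA3 at -0.25 (SE 0.0529, adjusted p = 0.000482). PSMA7, the alpha subunit with the strongest signal, had -0.05 with a 95% interval of -0.21 to 0.12 on its brightest probeset and did not pass. Its second brightest probeset fell, at -0.11 (SE 0.0401, adjusted p = 0.0271), and the remaining one had -0.11 and did not pass.

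The PSMA2 values show where this came from. In cohort 7a the controls had 10.24, 10.35, 10.47 and 10.47, and the 8 drinkers ranged from 9.63 to 10.10 with a median of 9.87. In cohort 7b the controls had 10.77 and 10.91 and the drinkers 9.91, 9.92, 10.07, 10.10 and 10.21. Every drinker of these cohorts lay under every control of its own cohort. In cohort 5 the controls had 9.96, 9.99, 10.06, 10.07 and 10.14, the drinkers ranged from 9.95 to 10.14 with a mean of 10.03 ± 0.0738 (SD), and the groups overlapped almost fully. The 11 drinkers of cohort 4 ranged from 9.94 to 10.15 with a median of 10.01. A second PSMA2 probeset also fell, and the other 3 had differences between -0.03 and 0.07 that did not pass.

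All 5 constitutive beta subunits measured fell on their brightest probeset. PSMB7, which carries the trypsin-like cutting site, fell by 18.9%, at -0.30 (SE 0.0527, adjusted p = 6.72e-05). PSMB6, with the caspase-like site, stood at -0.25 (SE 0.0533, adjusted p = 0.000473), and PSMB5, with the chymotrypsin-like site, at -0.10 (SE 0.0358, adjusted p = 0.0218). PSMB2, a structural subunit, had -0.13 (SE 0.0428, adjusted p = 0.0198). In cohort 7a PSMB7 was at 11.05, 11.17, 11.27 and 11.32 in controls and 10.63 to 10.91 with a median of 10.75 in drinkers. In cohort 7b it was at 11.41 and 11.54 in controls and 10.67, 10.94, 11.01, 11.03 and 11.05 in drinkers. No drinker reached the lowest control in either cohort, whereas in cohort 5 the controls, at 10.35, 10.42, 10.42, 10.45 and 10.66, lay within and just above the drinkers, at 10.18 to 10.51 with a median of 10.41. In cohort 4 the drinkers had 10.31 to 10.67 with a median of 10.43. PSMB1, another structural subunit, stood at -0.18 (SE 0.0486, adjusted p = 0.00365) on its brighter probeset, but its second probeset rose by 0.37 (SE 0.0574, adjusted p = 2.24e-05), and the mean of both gave 0.09 (adjusted p = 0.0162), so its direction depended on the probeset.

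Of the immunoproteasome subunits, PSMB8 fell by 26.4% (-0.44 (SE 0.104, adjusted p = 0.00123)) and PSMB10 by 12.6% (-0.19 (SE 0.0708, adjusted p = 0.0303)). Both replace constitutive cutting subunits after interferon. PSMB11, known from thymus, had a difference of -0.03 with a 95% interval of -0.12 to 0.07. PSMB8 was at 6.03, 6.09, 6.21 and 6.33 in controls of cohort 7a, all above the drinkers, at 5.08 to 5.63 with a median of 5.43. In cohort 7b it was at 5.99 and 6.48 in controls and 5.27, 5.28, 5.28, 5.59 and 5.97 in drinkers, and in cohort 5 at 5.25, 5.52, 5.64, 5.78 and 6.04 in controls against 5.30 to 6.16 with a median of 5.62 in drinkers. The gap between groups was wide in cohort 7a and narrow in cohort 7b, and in cohort 5 the groups overlapped. In cohort 4 the drinkers had 5.24 to 5.93 with a median of 5.52. Of 8 other interferon-induced genes listed, 7 were measured, and within cohorts IFIT1, IFIT3 and ISG15 fell while TAP1 (-0.08), IFI44 (-0.23), IRF1 (-0.16) and MX1 (0.09) did not pass. The mean level of these 7 genes was 7.58 to 7.75 in controls and 7.25 to 7.46 in drinkers of cohort 7a, and 7.77 to 7.95 against 7.17 to 7.55 in cohort 7b. Their part in the PSMB8 difference was not tested.

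Of 13 members counted with the 19S cap, 5 fell, 1 rose and 7 did not pass, with a median of -0.07. Among the ATPases, PSMC6 fell by 24.6% (-0.41 (SE 0.0886, adjusted p = 0.000577)), PSMC3 stood at -0.15 (SE 0.0544, adjusted p = 0.030) and PSMC2 at -0.15 (SE 0.0428, adjusted p = 0.00714). PSMC5, of the same ATPase ring, rose by 10.1% (0.14 (SE 0.0321, adjusted p = 0.00103)), but not on the mean of its probesets (0.04, adjusted p = 0.28). PSMC6 was at 8.94, 9.04, 9.07 and 9.28 in controls of cohort 7a and 8.03 to 9.02 with a median of 8.54 in drinkers, so that 1 drinker entered the control range. In cohort 7b controls had 9.63 and 9.71 and drinkers 8.32, 8.74, 8.89, 9.01 and 9.10, with a wide gap between them. Controls of cohort 5, at 8.33, 8.40, 8.44, 8.51 and 8.61, overlapped drinkers of that cohort, at 8.20 to 8.69 with a median of 8.40, and cohort 4 had 8.07 to 8.62 with a median of 8.44. Among the 8 other genes counted with the cap, PSMD6 (-0.23 (SE 0.0549, adjusted p = 0.00153)) and PSMD9 (-0.18 (SE 0.0568, adjusted p = 0.0127)) fell. PSMD9 is an assembly chaperone of the ATPases and is counted here by its symbol. PSMD13, with the strongest signal of this group, differed by less than 0.01 with a 95% interval of -0.07 to 0.08.

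Among the factors that assemble or open the core, the chaperones PSMG2 (-0.25 (SE 0.055, adjusted p = 0.000613)) and PSMG4 (-0.17 (SE 0.0556, adjusted p = 0.0148)) fell, and PSME3, the nuclear activator PA28 gamma, rose by 8.05% (0.11 (SE 0.0434, adjusted p = 0.0428)). PSMF1, a proteasome inhibitor, had 0.09 with an interval of -0.02 to 0.20 on its brightest probeset and did not pass, while another of its probesets fell by 0.11 (adjusted p = 0.00796). PSMG1, the partner of PSMG2, had an interval of -0.24 to 0.26 on its brightest probeset, and its second probeset fell by 0.18 (adjusted p = 0.00943).

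The 2 E1 enzymes of ubiquitin moved in opposite directions. UBA1, which charges nearly all E2 enzymes, rose by 32.9%, at 0.41 (SE 0.0698, adjusted p = 5.28e-05), and UBA6, which charges a small set of them, fell, at -0.29 (SE 0.0801, adjusted p = 0.00406). UBA1 was at 9.52, 9.66, 9.68 and 9.73 in controls of cohort 7a and 9.94 to 10.36 with a median of 10.30 in drinkers. In cohort 7b controls had 9.20 and 9.46 and drinkers 10.09, 10.16, 10.25, 10.25 and 10.37. Each of these 13 drinkers lay above every control of its own cohort. In cohort 5 the controls, at 9.29, 9.30, 9.39, 9.42 and 9.47, overlapped the drinkers, at 9.29 to 9.60 with a median of 9.42, and the drinkers of cohort 4 had 9.16 to 9.63 with a median of 9.43.

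UBA7, the E1 enzyme of ISG15, rose by 24.9% (0.32 (SE 0.0666, adjusted p = 0.000366)) on 2 probesets that share a target. Its other 3 probesets had 0.07 to 0.08 and did not pass. The 2 that rose had mean levels of 13.08 and 13.05, and the other 3 lay at 6.94 to 11.97. Whether the platform assigns each of these probesets to the right gene was not checked. ISG15 itself fell by 0.28 (SE 0.0733, adjusted p = 0.00268). On the SUMO branch, UBA2, the catalytic subunit of its E1 enzyme, fell by 17.7% (-0.28 (SE 0.0517, adjusted p = 0.000108)), and SUMO2 stood at -0.20 (SE 0.0489, adjusted p = 0.00138). SAE1, the partner of UBA2, had -0.02 with an interval of -0.09 to 0.06 on its brightest probeset and did not pass. Its second probeset fell, at -0.15 (SE 0.0393, adjusted p = 0.00339). UBA2 was at 10.39, 10.45, 10.56 and 10.73 in controls of cohort 7a against 10.08 to 10.46 with a median of 10.17 in drinkers, 1 of which entered the control range. In cohort 7b controls had 10.74 and 10.85 and drinkers 9.98, 10.11, 10.21, 10.30 and 10.33, which did not overlap. In cohort 5 controls had 10.39, 10.44, 10.51, 10.52 and 10.57 and drinkers 10.29 to 10.58 with a median of 10.40, and in cohort 4 drinkers had 10.32 to 10.66 with a median of 10.45.

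**Figure D2:**
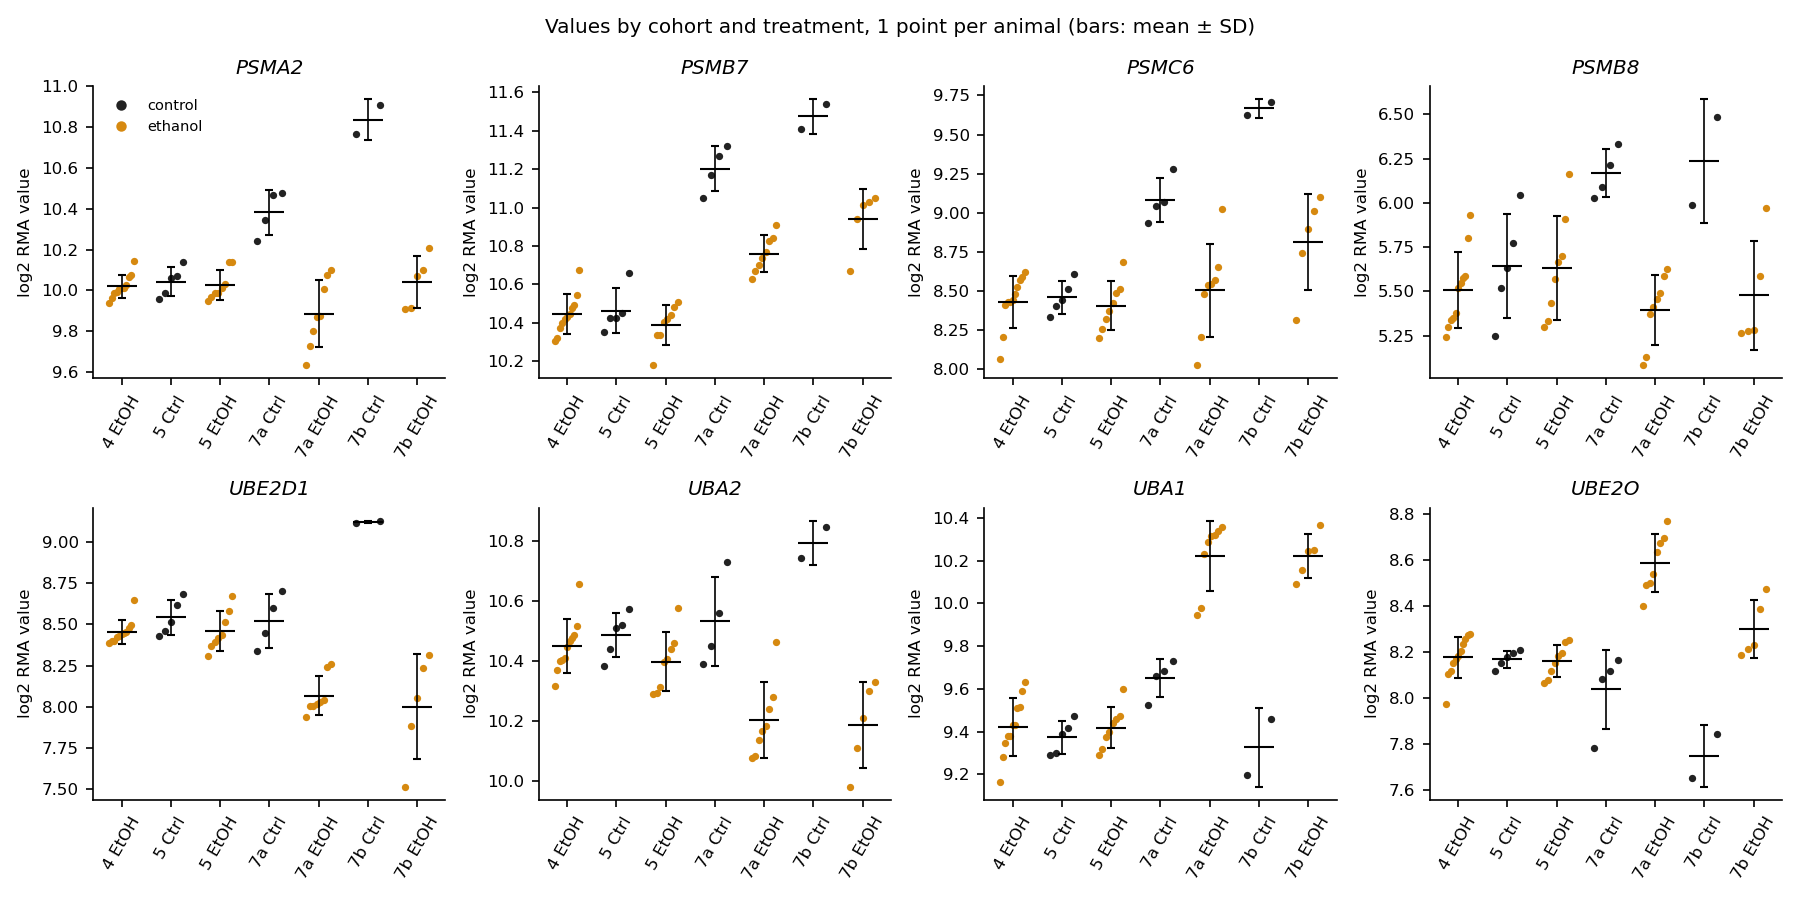
Log2 RMA values (y axis) of 8 members in each animal, by cohort and treatment (x axis), with mean and SD as bars; black points are controls and orange points are drinkers. In cohorts 7a and 7b drinkers lie above controls for UBA1 and UBE2O and under them for the other 6 genes, except for 1 drinker of cohort 7a in PSMC6 and UBA2, while in cohort 5 they overlap.

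Of 23 E2 enzymes tested, 13 fell, 2 rose and 8 did not pass. The UBE2D family, broad partners of E3 ligases, had 3 of 4 members lower, led by UBE2D1 at -0.43 (SE 0.0794, adjusted p = 0.000128), a fall of 25.5%. UBE2D3 had -0.03 on its brightest probeset and did not pass, but its other 3 probesets fell by 0.12 to 0.28. In the closely related UBE2E family, none of 3 members was called in cohort 5 or in cohort 7a (-0.15 to -0.02). All 3 were called in cohort 7b (-0.63 to -0.36), which had 2 controls. Within cohorts all 3 fell, with differences from -0.19 to -0.12. The largest fall was that of UBE2K, which builds lysine-48 chains, at -0.50 (SE 0.165, adjusted p = 0.0169); its signal was low, at a mean of 4.40, and its call was lost without control 37 of cohort 7b (adjusted p = 0.101). UBE2W, which marks protein N termini, stood at -0.30 (SE 0.0955, adjusted p = 0.0128), and UBE2N, which builds lysine-63 chains, at -0.18 (SE 0.0467, adjusted p = 0.0029).

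UBE2D1 shows the same layout by animal. In cohort 7a controls had 8.33, 8.45, 8.60 and 8.70 and drinkers 7.94 to 8.26 with a median of 8.02. In cohort 7b controls had 9.11 and 9.12 and drinkers 7.52, 7.89, 8.05, 8.24 and 8.32. Drinkers lay under controls in both cohorts, most widely in cohort 7b. In cohort 5 the controls, at 8.43, 8.46, 8.51, 8.62 and 8.68, overlapped the drinkers, at 8.31 to 8.67 with a median of 8.43, and cohort 4 had 8.38 to 8.65 with a median of 8.44.

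UBE2O, a large enzyme that works as E2 and E3 in one, rose by 24.1% (0.31 (SE 0.0588, adjusted p = 0.000145)), and UBE2R2, a partner of cullin ligases, by 6.86% (0.10 (SE 0.0363, adjusted p = 0.0376)). UBE2O was at 7.78, 8.09, 8.12 and 8.17 in controls of cohort 7a and 8.40 to 8.77 with a median of 8.59 in drinkers, and in cohort 7b at 7.65 and 7.84 and 8.19, 8.21, 8.23, 8.39 and 8.47. Again no drinker fell into the control range, and in cohort 5 the controls, at 8.12, 8.15, 8.18, 8.20 and 8.21, lay inside the drinkers, at 8.07 to 8.25 with a median of 8.17. In cohort 4 the drinkers had 7.97 to 8.28 with a median of 8.18. PSMC3IP rose, at 0.23 (SE 0.0465, adjusted p = 0.000335), on 2 of its 8 probesets, and the mean of all of them differed by 0.01 (adjusted p = 0.94). Of the 27 called members with several probesets, 17 had another probeset called the same way. The other 10 had none: PSMA1, PSMB1, PSMB2, PSMC2, PSMC5, PSMD6, PSME3, PSMG2, PSMG4 and UBE2D2. Among these, the second probeset of PSMA1, PSMB1, PSMC2, PSMC5, PSMD6 and PSMG4 had a difference of the opposite sign.

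Cohort by cohort, the members differed between drinkers and controls in cohorts 7a and 7b and not detectably in cohort 5. In cohort 5 no member and no probeset of the array was called (0% of 24151), and 1 member and 731 probesets had an unadjusted p under 0.05. The member differences there ran from -0.14 to 0.21 with a median of -0.01, and their 95% intervals reached 0.13 to either side at the median and 0.45 at most. In cohort 7a 25 members fell and 6 rose, beside 20.3% and 10.6% of all probesets, and the member median was -0.12 against -0.07 on the whole array. With each array centred on its median these were 16 and 7, and without control 27 they were 15 and 5. In cohort 7b 38 members fell and 7 rose, beside 26.1% and 14% of all probesets, with a member median of -0.40 against -0.06. That cohort had only 2 controls, and differences were larger there than in cohort 7a for 54 of 62 members; the difference between these cohorts was not tested. Over both, 43 members were lower and 12 higher in each cohort.

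By role, the alpha subunits had a median of -0.01 in cohort 5, -0.35 among animals of cohort 7a and -0.76 among those of cohort 7b. For the constitutive beta subunits it was -0.01, -0.24 and -0.44, and for the E2 enzymes 0.00, -0.13 and -0.40. PSMB10 stood at -0.12 in cohort 7a, which did not pass, and at -0.67 (SE 0.138, adjusted p = 0.000132) in cohort 7b. UBA1 rose by 48.8% in cohort 7a and 86% in cohort 7b, and UBE2O by 46.5% in both.

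**Figure D3:**
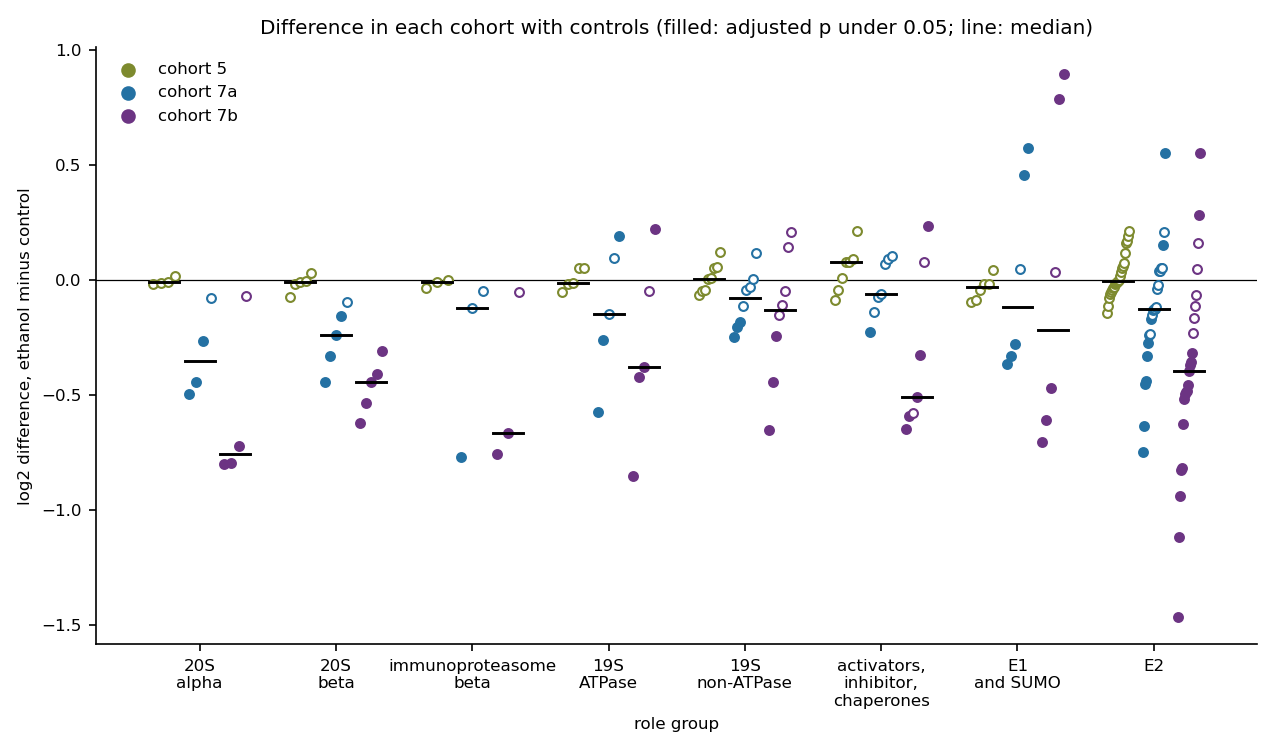
Log2 difference between drinkers and controls (y axis) of each member by role group (x axis) in cohorts 5, 7a and 7b; filled points passed at an adjusted p under 0.05 and black lines are medians. Cohort 5 holds no filled point, and the alpha subunit median goes from -0.01 in cohort 5 to -0.76 in cohort 7b.

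Both within cohort 7a and within cohort 7b, drinkers and controls did not overlap, with drinkers lower, for 7 members (PSMA2, PSMA3, PSMB1, PSMB7, PSMB8, SUMO2 and UBE2D1), and with drinkers higher for 3 (UBA1, UBE2O and PSMC3IP). These are 11.3% and 4.84% of the members, beside 5.22% and 3.76% of all probesets, so that the share with drinkers higher was near that of the array. In cohort 5 no member stood apart in either direction, beside 0.0621% of probesets lower and 0.104% higher.

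The difference between the effects in cohorts 7a and 5 was itself tested. It was negative for 14 members and positive for 4, beside 9.31% and 5.17% of all probesets, and with arrays centred on the median for 7 and 6. UBE2O had the largest positive difference, 0.56 (SE 0.0925, adjusted p = 7.07e-05), followed by UBA1, 0.53 (SE 0.107, adjusted p = 0.000768), and UBA7, 0.47 (SE 0.104, adjusted p = 0.00187). The largest negative ones were those of UBE2K (-0.92 (SE 0.306, adjusted p = 0.037)), PSMB8 (-0.76 (SE 0.20, adjusted p = 0.00811)), PSMC6 (-0.52 (SE 0.168, adjusted p = 0.0301)) and PSMA2 (-0.48 (SE 0.0916, adjusted p = 0.000395)). UBE2M (-0.45 (SE 0.137, adjusted p = 0.0218)), an E2 enzyme of NEDD8, and UBE2L6 (-0.43 (SE 0.116, adjusted p = 0.00917)), the E2 enzyme of ISG15, were named after their values were seen; both passed here and in cohort 7a but not within cohorts. Without control 28 of cohort 7a, the count was 6 negative and 3 positive. The 2 cohorts differ in RNA kit and array processing, which cannot be told apart from cohort.

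Neither of the comparisons among drinkers called a member. Between drinkers of cohorts 4 and 5, which shared kit and array processing, 0% of probesets and no member passed, while 5 members and 909 probesets had an unadjusted p under 0.05. The largest of these 5 was UBE2K, at -0.40 with a 95% interval of -0.74 to -0.05. For average daily ethanol intake, with cohort as a term over the 32 drinkers, 0% of probesets and no member passed, and no member and 965 probesets had an unadjusted p under 0.05. The smallest p were those of PSMA7 (slope 0.12 per g/kg per day, adjusted p = 0.999) and UBE2G2 (slope -0.13, adjusted p = 0.999).

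Genes of the pathway outside the symbol rule moved in both directions. Of 61 symbols listed, 40 were measured, and 13 fell and 5 rose within cohorts, beside 21.5% and 11.8% of all probesets. Their median was -0.04, beside -0.04 over all probesets tested. Among those that rose were the E3 ligases UBE3B (0.32, SE 0.0672, adjusted p = 0.000384) and HUWE1 (0.30, SE 0.0486, adjusted p = 3.88e-05), and NFE2L1 (0.32, SE 0.0731, adjusted p = 0.000994), the transcription factor that raises proteasome genes when the proteasome is short. NFE2L1 was at 9.93 to 10.19 in controls and 10.26 to 10.46 in drinkers of cohort 7a, and at 9.19 to 9.82 and 10.06 to 10.74 in those of cohort 7b. HUWE1 was at 9.23 to 9.36 and 9.56 to 9.82 in cohort 7a, and at 8.66 to 8.86 and 9.22 to 9.65 in cohort 7b. Neither gene overlapped between treatments within these cohorts. In cohort 5 neither was called (0.03 for NFE2L1 and 0.11 for HUWE1). NFE2L2 (-0.20, SE 0.0687, adjusted p = 0.0208) and NGLY1 (-0.14, SE 0.0544, adjusted p = 0.0409), also listed, fell within cohorts. RNF7, a RING partner of cullins, fell by 0.27 (SE 0.0552, adjusted p = 0.000259). USP14, a deubiquitinating enzyme of the cap, had -1.57 (SE 0.442, adjusted p = 0.00555), with controls of cohort 5 spread from 5.49 to 11.03 and those of cohort 7b at 9.21 and 11.54.

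Some cell type markers moved with the members in the same arrays. Of 9 neuron markers 5 were measured, and within cohorts GAD2, of inhibitory neurons, rose (1.10, SE 0.149, adjusted p = 7.41e-06), SLC17A7, of excitatory neurons, rose (0.15), and STMN2 (-0.09), GAD1 (-0.02), also of inhibitory neurons, and SYT1 (0.03) did not pass. The mean of the 5 was 10.51 to 10.80 in controls and 10.93 to 11.12 in drinkers of cohort 7a, and 10.58 to 10.74 against 10.96 to 11.30 in cohort 7b. GAD2 made this gap: the mean of the other 4, computed after these values were seen, was 11.37 to 11.72 and 11.62 to 11.69 in cohort 7a, and 11.54 to 11.67 and 11.46 to 11.73 in cohort 7b, so that the treatments overlapped. Of 7 microglia markers 6 were measured, and within cohorts P2RY12 (-0.58), AIF1 (-0.44) and CX3CR1 (-0.20) fell, while C1QB (-0.13), C1QA (0.12) and CSF1R (0.07) did not pass; CSF1R was higher in drinkers of cohort 7b (0.36, adjusted p = 0.0123). The mean of all 6 was 7.40 to 7.79 in controls and 7.05 to 7.41 in drinkers of cohort 7a, and 7.60 to 7.67 against 7.17 to 7.46 in cohort 7b. Of 6 astrocyte markers 4 were measured, and within cohorts GFAP rose (0.27), while SLC1A2 (0.20), ALDH1L1 (0.09) and SLC1A3 (-0.003) did not pass. GFAP was higher in drinkers of cohort 7b (0.84) but not of cohort 7a (-0.01). SLC1A2 was higher in drinkers of cohorts 7a (0.30) and 7b (0.65), and ALDH1L1 and SLC1A3 passed in neither. None of 2 oligodendrocyte or 4 endothelial markers passed within cohorts, but in cohort 7b PECAM1 (-0.41) and CLDN5 (-0.36), of endothelium, were lower in drinkers and CNP, of oligodendrocytes, was higher (0.18). In cohort 5 no marker of any list was called. The part of these markers in the member differences was not tested.

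Fewer members were called with a measure of RNA quality as a term. In cohort 7a the actin value itself did not overlap between treatments. With the actin 3′ minus 5′ value of each array beside cohort, 13 members fell and 7 rose. With the RNA integrity number of each animal beside cohort, 5 fell (PSMA2, PSMB7, PSMB8, UBE2D1 and UBA2) and 3 rose (UBA1, UBE2O and PSMC3IP). That fit left out control 37 of cohort 7b, which had no integrity number, and without this animal the fit with cohort alone gave 21 lower and 5 higher. With integrity number and array processing batch as terms, UBA1 was the only member called. With batch in place of cohort 24 fell and 5 rose, and in cohorts 7a and 7b alone, by batch, 32 fell and 5 rose. No call of the 40 changed sign in any of these fits, and how far RNA quality makes up the differences was not tested.

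**Figure D4:**
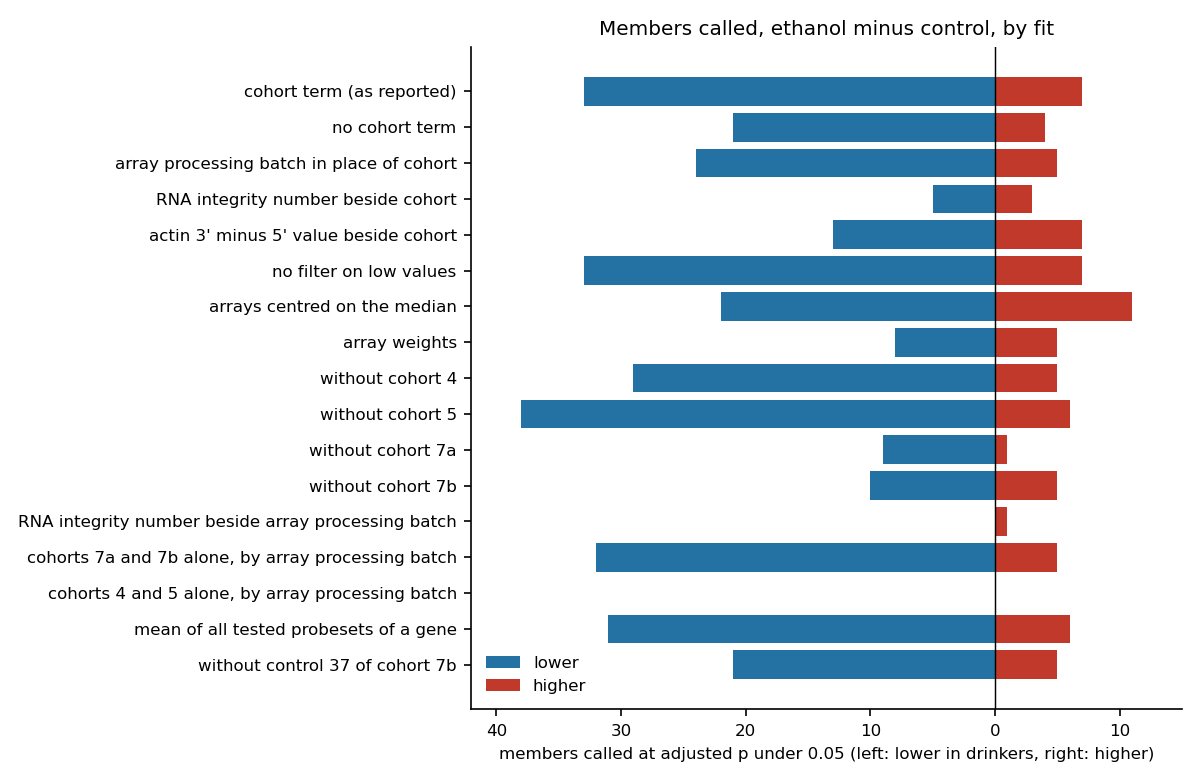
Number of members called lower (left, blue) or higher (right, red) in drinkers (x axis) under each fit (y axis). The count falls from 33 lower and 7 higher with a cohort term to 5 and 3 with the RNA integrity number beside it, and is 0 in cohorts 4 and 5 alone.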

How the data were processed

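The authors extracted RNA from 3 areas of medial prefrontal cortex, pooled it per animal and hybridised it to the Affymetrix Rhesus Macaque Genome Array, 1 array per animal. The deposited values are log2 values after RMA background correction, quantile normalization and summary by probeset, with no adjustment for array processing batch. Of 52865 probesets, 24956 have 1 gene symbol in the platform table and 361 have several. A probeset was dropped if 80% or more of its values lay under 3.5, and 24151 annotated probesets were tested. Each gene is represented by the probeset with the highest mean, and 10 matching probesets with several symbols were left out. The table holds no counts, so precision rests on how many animals, mainly controls, each group holds.

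Treatment was tested in limma 3.58.1 (R 4.3.3) with cohort as a term over 43 arrays, and within cohorts by contrasts of 7 group means, which share 1 estimate of spread. P-values were adjusted by Benjamini-Hochberg over all 24151 probesets, and calls are at an adjusted p under 0.05. The study itself used a two-class fit on batch-adjusted values; the two-class fit on the deposited values is an alternative. Processing batches (8) were recovered from the shift between deposited and batch-adjusted values of the study's supplementary table, and intake and RNA integrity numbers, used as covariates only, came from its phenotype table; 42 animals had an integrity number. The fits were tested on simulated data. Tables and figures were made with Python 3.11.15, pandas 2.3.3 and matplotlib 3.10.9. The members and the gene lists were chosen with earlier results of these data known. Named genes are, by role, up to 4 called members of largest difference and the one of highest mean, those of the less common direction, those called between cohorts 7a and 5 (up to 6), the smallest p for intake (2), and a fixed set around the E1 enzymes, SUMO and the cutting subunits. No coordinates or sequences are given, since the tables used here hold none for this array.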

Additional observations from a re-analysis of the deposited data

Results flagged for a closer look

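For 15 named genes the difference between drinkers and controls itself differed between cohorts 7a and 5 (limma contrast of the 2 effects, adjusted p under 0.05). It was lower in cohort 7a for UBE2K (-0.92), PSMB8 (-0.76), PSMC6 (-0.52), PSMA2 (-0.48), PSMA1 (-0.46), UBE2D1 (-0.37), PSMB7 (-0.37), PSMB6 (-0.33), PSMC3 (-0.31), SUMO2 (-0.26) and PSMA3 (-0.25). It was higher in cohort 7a for UBE2O (0.56), UBA1 (0.53), UBA7 (0.47) and PSMC3IP (0.26). The 2 cohorts differ in RNA kit and array processing.

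In 8 of 185 groups of 4 to 10 animals examined for the named genes, 1 animal lay far from the others, where chance alone gives about 5% of groups. In cohort 7a these were drinker 32 for PSMC2 (10.61, nearest other 10.39), control 25 for PSMA7 (11.76, nearest 12.02), drinker 36 for PSMA7 (11.29, nearest 11.81) and control 27 for PSMB1 (11.46, nearest 11.26). Drinker 42 of cohort 7b stood apart for PSMB7 (10.67, nearest 10.94) and PSMB1 (10.73, nearest 11.13). In cohort 5 drinker 24 stood apart for UBE2G2 (5.72, nearest 5.99) and drinker 20 for PSMB5 (10.47, nearest 10.68).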

How the results depend on the processing

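Against the 40 members called within cohorts, 25 were called with no cohort term, 20 with the actin 3′ minus 5′ value beside cohort, 13 with array weights, 10 without cohort 7a, 15 without cohort 7b and 8 with the RNA integrity number beside cohort, a fit that also lacks control 37 of cohort 7b. Of fits chosen after seeing the data, integrity number beside batch gave 1 and cohorts 4 and 5 alone by batch gave 0, out of 19 drinkers and 5 controls; cohorts 7a and 7b alone stayed within 1.5 times the count. Leaving out 1 animal in turn, among controls and the drinkers of cohort 7b only, gave 26 (without control 37 of cohort 7b) to 40. Here and below, no drinker of cohorts 4, 5 or 7a was left out in this way. In cohort 7a the 31 became 17 with the actin value, 18 with the arrays of the comparison alone, and 20 (without control 27) to 32 leaving out 1 animal. In cohort 7b the 45 became 16 with the integrity number, which leaves 1 control, and 34 to 44 leaving out 1 animal. The 18 calls for the difference of the effects in cohorts 7a and 5 became 9 with the actin value and 9 (without control 28 of cohort 7a) to 17 leaving out 1 animal. The comparisons with no called member had none under any alternative. Why these counts fell was not tested beyond the smaller number of animals.

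Over the 37 named genes and all alternatives, 887 of 1147 values kept direction and side of the threshold, 230 lost the call, 1 gained it and 29 changed sign. In cohorts 4 and 5 alone PSMC3 (0.0177), PSMD9 (0.0145), PSMA1 (0.00327), PSMB2 (0.00909), UBA6 (0.0565) and PSMG4 (0.012) changed sign with no call. The mean of all probesets turned PSMB1 (0.0931), PSMG1 (-0.0837) and PSMF1 (-0.0377). UBE2D3 turned with arrays centred on the median (0.013). PSMD13 turned with no cohort term (-0.0609), with batch (-0.00599), without cohort 5 (-0.0359) and in cohorts 7a and 7b alone (-0.0293), and ran from -0.0225 to 0.0301 leaving out 1 animal. PSMG1 turned with the actin value (-0.0759), without cohort 5 (-0.142), without cohort 7a (-0.0377) and in cohorts 7a and 7b alone (-0.181), and ran from -0.0331 to 0.0854. The cause was not tested. No paired analysis was possible because the replicate numbers of the labels are unique to each animal and shared by no groups.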
